A study of Sander lucioperca with 12 samples.

Results

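The transcription factor Atf4 and 5 of its known targets were followed in the whole brain of juvenile pikeperch (Sander lucioperca), a predatory freshwater fish. The 7 genes were chosen by symbol, for their place in the integrated stress response: the paralogs atf4a and atf4b, and asns, ddit3, trib3, chac1 and sesn2. All 7 symbols were found among the 32963 named genes of the count table, and all 7 passed the filter on low counts in every comparison. The brains came from wild fish caught in August surveys and formed 4 groups of 3 libraries, each library from 1 fish. Piscivores of 2022 (numbered 1, 2 and 3 in the labels) and piscivores of 2023 (1, 2 and 4, labelled piscivorous or cannibal) came from the littoral. Planktivores of 2022 (2, 3 and 4) and planktivores of 2023 (4, 5 and 6) came from the pelagic. No fish was treated and none carried an engineered allele. The piscivores were the larger fish and were caught with other gear, so diet, habitat, body size and catch cannot be told apart in the comparison of phenotypes. Likewise, each year had its own batch date, so year and batch cannot be told apart.

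The integrated stress response is the pathway by which a cell lowers protein synthesis when amino acids run short, when unfolded proteins gather in the endoplasmic reticulum, or when haem is lacking or a virus is present. Kinases that sense these states phosphorylate the initiation factor eIF2, most mRNAs are then translated less, and, as shown in mammals and yeast, upstream open reading frames let the mRNA of Atf4 (Gcn4 in yeast) be translated more. Atf4 binds DNA with other bZIP proteins at CARE elements and raises genes that make, import and charge amino acids. A large part of the control of Atf4 is therefore translational, and counts of poly(A) RNA, as measured here, hold no information on it. Teleost fishes carry atf4 as the paralogs atf4a and atf4b.

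The libraries held 15327406 to 33858794 counts on named genes, and the 7 genes together took 0.0662 to 0.0859% of them. The share of counts on ribosomal RNA genes differed by year: it was 12.0 to 21% in the 2022 libraries, highest in planktivore 2, and 0.137 to 0.36% in those of 2023. Markers of neurons, astroglia, oligodendrocytes and microglia that were in the table were at 3 counts or more in every library. Summed markers of other parts differed: pituitary markers ran from 0.393 to 2582 CPM (counts scaled to the same total in every library), and those of the telencephalon from 20.4 to 169 CPM. Those of meninges and fibroblasts were 260 to 417 CPM in piscivores against 108 to 202 CPM in planktivores of 2022, and 245 to 713 CPM against 103 to 206 CPM in 2023. In whole brains, fewer cells of a type and less RNA per cell cannot be told apart.

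Positions are given on the assembly SLUC_FBN_1.2. The gene atf4a lies on the minus strand of chromosome 4 from 17033464 to 17038556, and atf4b on the minus strand of chromosome 21 from 16172295 to 16178586. Chromosome 16 holds 3 of the targets: trib3 (152779 to 159761, minus strand), sesn2 (19815721 to 19824603, plus strand) and asns (27691670 to 27722180, minus strand). The gene ddit3 is on the plus strand of chromosome 6 from 8042881 to 8046436, and chac1 on the minus strand of chromosome 19 from 20594177 to 20596018. Exons of sesn2 overlap those of LOC118493437 on the opposite strand, and the strand setting of the counting is not given in the sources used here, so sesn2 values are uncertain. The genes LOC116065246 and LOC116047836 overlap atf4b and trib3 without sharing exon bases.

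The 7 genes spanned a wide range of transcription rates. In TPM, a unit that divides counts by exon length and so lets genes be compared, chac1 was highest with a mean of 341.5 TPM over 12 libraries (288 to 482). Its product breaks down glutathione. The paralogs followed with 197 TPM for atf4a (156 to 230) and 132 TPM for atf4b (113 to 161). Then came ddit3 with 71.9 TPM (45.7 to 104) and asns with 32.1 TPM (18.1 to 45.9). At the low end stood sesn2 with 6.51 TPM (4.80 to 8.20) and trib3 with 2.85 TPM (1.78 to 3.95), the latter on only 28 to 99 counts per library. By mean TPM, chac1 ranked 349, atf4a 600 and atf4b 908 of the 32963 genes, and trib3 ranked 16599. Among the 205 transcription factor symbols that the study tabulated and the table holds, atf4a was 2nd and atf4b 3rd in mean TPM, after neurod1, a bHLH factor of neurons, at 534 TPM. The next was sirt2, listed with the factors although it encodes a deacetylase, at 71.9 TPM. The high level of the paralogs was known when they were chosen, so this rank is a description.

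**Figure D1:**
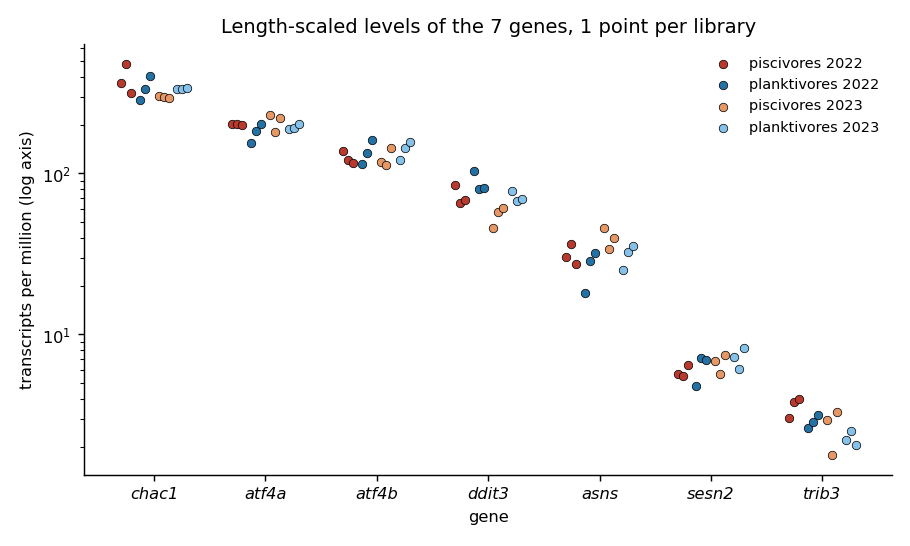
Levels of the 7 genes in TPM (log axis), with 1 point per library coloured by phenotype and year. From chac1, with 288 to 482 TPM, to trib3, with 1.78 to 3.95 TPM, the order of the genes was the same in 11 of 12 libraries.

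Neighbours in this order were mostly apart. In 12 of 12 libraries chac1 was above atf4a, by a TPM ratio of 1.33 to 2.38, and atf4a was above atf4b, by 1.26 to 1.94. The ranges of atf4a and atf4b over the libraries overlapped all the same, since the lowest atf4a (156 TPM) was under the highest atf4b (161 TPM). In 11 of 12 libraries ddit3 was above asns, and the exception, piscivore 1 of 2023, had nearly equal values (45.7 TPM for ddit3 and 45.9 TPM for asns). The remaining neighbours, atf4b and ddit3, asns and sesn2, and sesn2 and trib3, had ranges that did not touch.

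Most of what follows is in CPM, scaled by trimmed mean of M values (TMM) factors over the 12 libraries, which compares libraries but not genes. On this scale the paralogs were among the steadiest genes in the brain. Over all 12 libraries the highest level of atf4a was 1.25 times the lowest, and that of atf4b 1.26 times, against a median of 2.05 times over the 21789 genes tested. In TPM their ranges were wider, 156 to 230 for atf4a and 113 to 161 for atf4b, and their place among all genes was not computed. The pooled SD within groups was 0.093 on the log2 scale for atf4a and 0.087 for atf4b, at percentiles 2.91 and 2.01 of all tested genes. Among the 12106 genes of at least 10 CPM, a set that reaches well below the 127 to 282 CPM of the paralogs, they stood at percentiles 5.01 and 3.47. The part of their abundance in this was not tested. The targets lay nearer the middle of all tested genes, at percentiles from 26.0 (sesn2) to 52.8 (ddit3) of the SD within groups. Their ratio of highest to lowest was 2.14 for asns, 2.70 for ddit3, 2.14 for trib3, 1.86 for chac1 and 1.54 for sesn2. The SDs within groups of these 5 lay between 0.182 and 0.278 (log2), against a median of 0.265 over tested genes. Among genes of at least 10 CPM the median SD was 0.204, and asns stood at percentile 51.9, chac1 at 53.3 and ddit3 at 73.4.

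The transcripts of atf4a were at 241, 276 and 257 CPM in piscivores 1, 2 and 3 of 2022, and at 227, 226 and 230 CPM in planktivores 2, 3 and 4. All 3 piscivores of that year were above all 3 planktivores. In TPM these groups overlapped, since planktivore 4 (202.3 TPM) was above piscivore 3 (199.8 TPM). In 2023 the piscivores 1, 2 and 4 had 282, 252 and 264 CPM and the planktivores 4, 5 and 6 had 271, 225 and 240 CPM, so the groups overlapped through planktivore 4. Group means (± SD, n = 3) were 258 ± 17.5 and 227 ± 1.96 CPM for piscivores and planktivores of 2022, and 266 ± 15.0 and 245 ± 23.5 CPM for 2023. Over both years the piscivores were 0.15 higher on the log2 scale, with a 95% interval of -0.02 to 0.32 (edgeR quasi-likelihood test with year as a term, adjusted p = 0.405). The upper end of this interval is a 1.25-fold higher level in piscivores.

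For atf4b the direction was the opposite. Piscivores 1, 2 and 3 of 2022 had 143, 144 and 131 CPM against 146, 144 and 159 CPM in planktivores 2, 3 and 4. Piscivores 1, 2 and 4 of 2023 had 127, 136 and 149.5 CPM against 152, 147 and 160.0 CPM in planktivores 4, 5 and 6. The groups overlapped in both years, by a small margin in 2022, where piscivore 2 was just above planktivore 3. Over both years the log2 difference was -0.13 with a 95% interval of -0.29 to 0.03 (edgeR, adjusted p = 0.449).

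**Figure D2:**
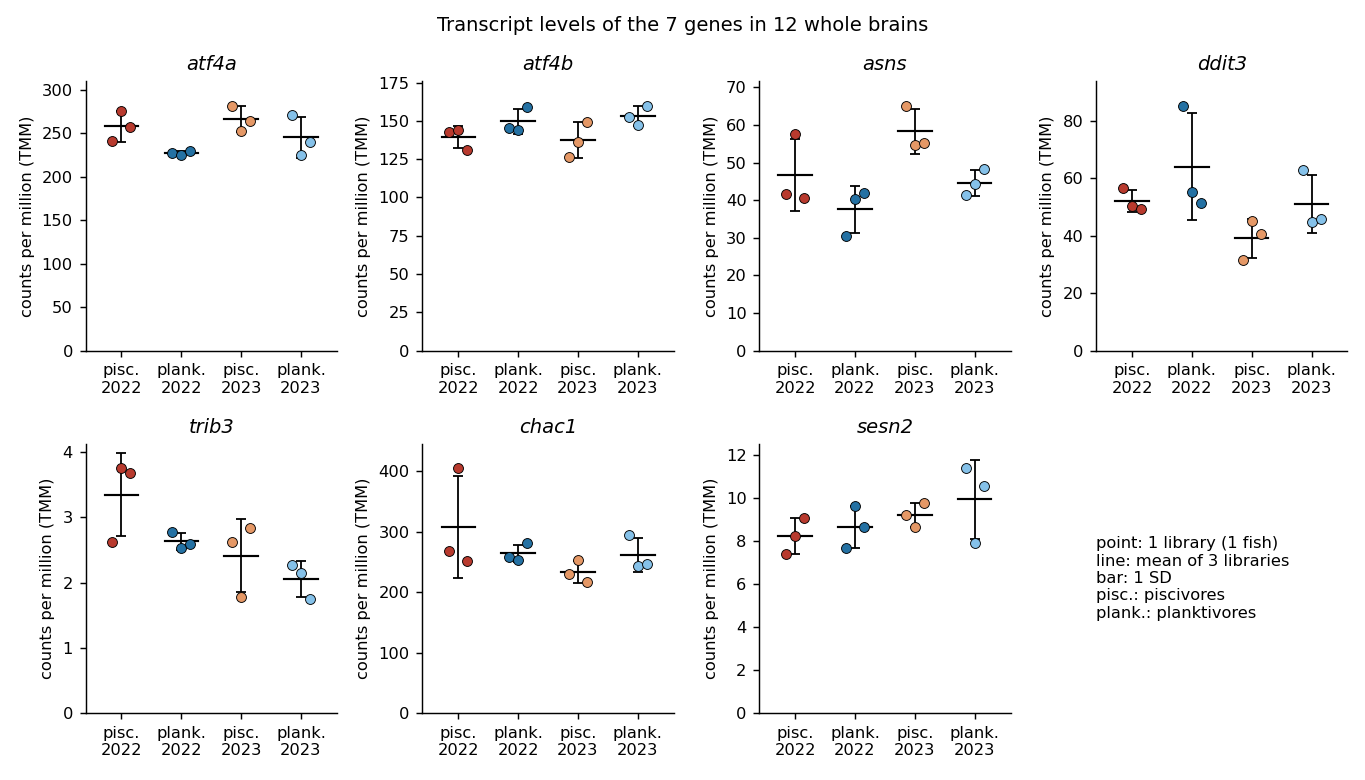
CPM (TMM-scaled) of the 7 genes by group, each axis from 0, with 1 point per library, the mean as a line and 1 SD as a bar. The paralogs atf4a (225 to 282 CPM) and atf4b (127 to 160.0 CPM) hardly moved, while ddit3 ran from 31.6 to 85.3 CPM and 1 piscivore of 2022 stood apart for chac1 at 404 CPM.

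The ratio of the paralogs within a library was compared as well, since it needs no scaling between libraries. Its difference between groups is made of the differences of atf4a and atf4b just given, so it describes those values on another scale and is not independent evidence. Piscivores 1, 2 and 3 of 2022 held 1.69, 1.91 and 1.96 atf4a counts per atf4b count, and planktivores 2, 3 and 4 held 1.56, 1.57 and 1.44. In 2023 the piscivores 1, 2 and 4 held 2.23, 1.85 and 1.77, and the planktivores 4, 5 and 6 held 1.78, 1.53 and 1.5. The groups were apart in 2022 and overlapped in 2023, where planktivore 4 was just above piscivore 4. Over both years the ratio was 1.22-fold higher in piscivores (log2 difference 0.28, exact two-sided permutation test within years, p = 0.01, smallest possible p 0.005, n = 12). The difference was of the same size in each year, 0.28 in 2022 and 0.28 in 2023, but 3 against 3 fish cannot reach an exact p under 0.1, and the values were 0.1 and 0.2. Between years, within phenotypes, the ratio moved by 0.07 (exact permutation test, p = 0.36). This was 1 ratio tested in 6 comparisons, and the Benjamini-Hochberg adjusted value of its smallest p over these 6 was 0.06, so the difference does not pass 0.05 after this correction.

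**Figure D3:**
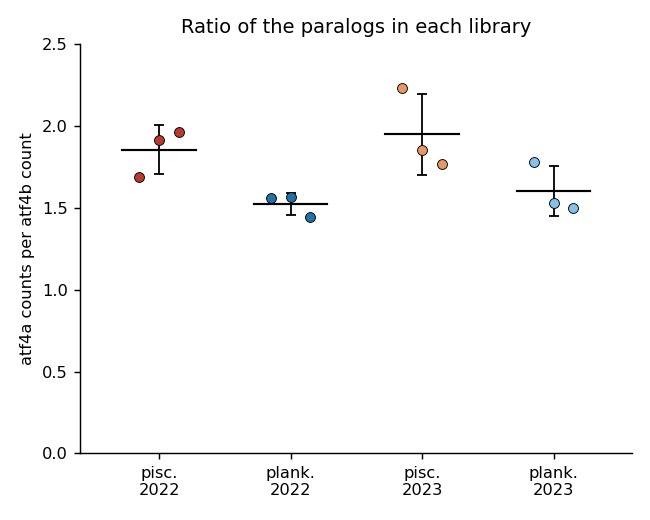
Counts of atf4a per count of atf4b by group, with 1 point per library, the mean as a line and 1 SD as a bar. Piscivores ranged from 1.69 to 2.23 and planktivores from 1.44 to 1.78, so most piscivores lay above the planktivores, with overlap at planktivore 4 of 2023.

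None of the 7 genes was differentially transcribed (DT; adjusted p below 0.05 and a log2 fold change beyond 1) in any comparison by edgeR, and none by DESeq2. Few genes were: 0.168% of all tested genes between phenotypes in 2023 and 0.0533% in 2022, 0.356% between years in piscivores and 0.971% in planktivores, 0.298% between phenotypes over both years and 0.0138% in the test of whether the phenotype difference changed with year. A count of 0 among 7 genes is thus near the background. These shares rest on few genes that move with single libraries: the 65 DT genes over both years became 1 to 113 with a library left out, and the 36 of 2023 became 1 to 16. Of the 42 fold changes, 41 had a 95% interval inside -1 to 1 on the log2 scale, the exception being trib3 between years in piscivores (-1.12 to 0.18). At unadjusted p below 0.05 edgeR gave 4: asns between phenotypes in 2023 and over both years, ddit3 between phenotypes over both years, and ddit3 between years in piscivores. Of all genes tested, 13.7% were below that p between phenotypes in 2023, 7.25% in 2022, 17.3% between years in piscivores, 20.0% in planktivores, 14.9% between phenotypes over both years and 6.40% for the change between years, so 4 of 42 is no more than the background. DESeq2 gave these and atf4a over both years, where its log2 difference was 0.16 (unadjusted p = 0.0162, adjusted p = 0.173).

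**Figure D4:**
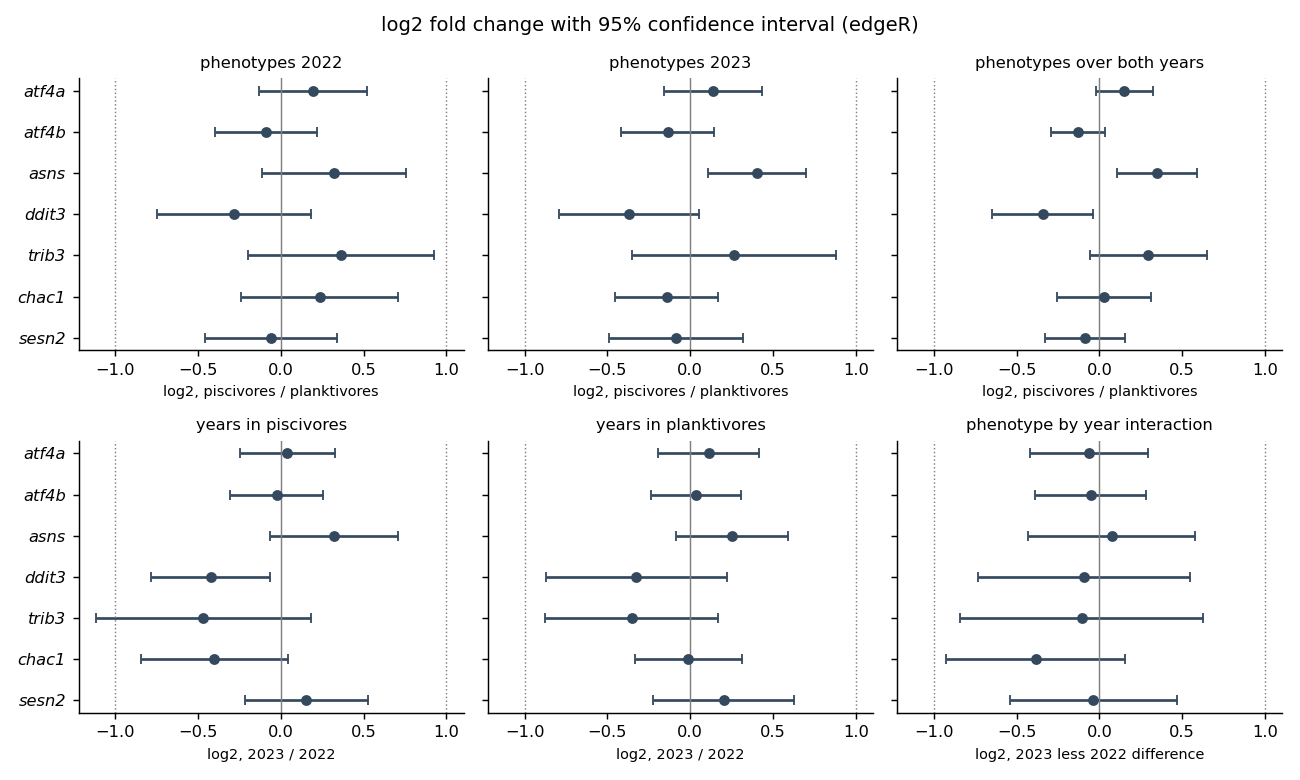
log2 fold changes (points) with 95% confidence intervals (bars) from edgeR for the 7 genes in 6 comparisons, where positive means higher in piscivores or higher in 2023 and dotted lines mark 1 and -1. Intervals clear of 0 are those of asns (0.35, phenotypes over both years, and 0.40, phenotypes 2023) and ddit3 (-0.34, phenotypes over both years, and -0.42, years in piscivores).

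The target with the clearest lean was asns, which encodes asparagine synthetase, the enzyme that makes asparagine from aspartate and glutamine. In 2023 the piscivores 1, 2 and 4 had 65.2, 54.6 and 55.1 CPM and the planktivores 4, 5 and 6 had 41.5, 44.3 and 48.3 CPM. In CPM the groups did not overlap, as was the case for 20.3% of all genes tested in that comparison. In TPM they overlapped, with 34.1 TPM in piscivore 2 and 35.5 TPM in planktivore 6. In 2022 the piscivores 1, 2 and 3 had 41.7, 57.7 and 40.6 CPM and the planktivores 2, 3 and 4 had 30.5, 40.4 and 41.8 CPM, which overlapped. The log2 difference was 0.40 (SE 0.13) in 2023, 0.32 (SE 0.19) in 2022 and 0.35 (SE 0.11) over both years, with a 95% interval of 0.11 to 0.59 for the last (edgeR, unadjusted p = 0.00852, adjusted p = 0.165). Its p-value was within the lowest 5.15% of all genes. Without piscivore 1 of 2023 the 2023 difference was 0.31 (edgeR, unadjusted p = 0.0536). Leaving out piscivore 2 of 2022 lowered the 2022 difference to 0.13. The summed meningeal markers leaned between phenotypes as asns did: all 7 markers were detected and piscivores were above planktivores in both years. Piscivore 1 of 2023 was highest both for asns and for these markers (713 CPM). Within groups they rose with asns in planktivores 2, 3 and 4 of 2022 (108, 170 and 202 CPM). They fell as asns rose in planktivores 4, 5 and 6 of 2023 (206, 138 and 103 CPM). In piscivores of either year the orders of the libraries differed in part. In 2023, where asns was apart in CPM, piscivores were also apart from planktivores in microglial (1562 to 2037 against 698 to 1440 CPM) and telencephalon markers (83.2 to 169 against 38.3 to 58.9 CPM), which were higher. They were lower in markers of neurons (5189 to 6227 against 6332 to 6927 CPM), cerebellum (601 to 1188 against 1297 to 1431 CPM) and erythrocytes (127 to 243 against 247 to 591 CPM). The part of these in the asns difference was not tested.

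The gene ddit3 encodes Chop, a bZIP partner of Atf4 that is tied in mammals to cell death under lasting stress. Its lean was the reverse of that of asns. Piscivores 1, 2 and 3 of 2022 had 56.6, 50.5 and 49.4 CPM, and planktivores 2, 3 and 4 had 85.3, 55.4 and 51.6 CPM. Piscivores 1, 2 and 4 of 2023 had 31.6, 45.1 and 40.6 CPM, and planktivores 4, 5 and 6 had 62.8, 44.9 and 45.8 CPM. In CPM a single planktivore of each year, 2 in 2022 and 4 in 2023, was well above the others. The rest overlapped with or came near the piscivores. In TPM the groups of 2022 overlapped (65.8 to 84.5 TPM in piscivores, 80.2 to 104 TPM in planktivores). Those of 2023 did not, with 45.7 to 60.7 TPM in piscivores and 67.9 to 77.9 TPM in planktivores. How many of all genes do the same in TPM was not computed. Over both years piscivores were at -0.34 (log2, SE 0.14, 95% interval -0.65 to -0.04, edgeR, unadjusted p = 0.0310, adjusted p = 0.279). In edgeR fits with a library left out this changed to -0.23 (unadjusted p = 0.0940) without planktivore 2 of 2022, to -0.26 (0.0820) without planktivore 4 of 2023 and to -0.28 (0.0795) without piscivore 1 of 2023, and p was also above 0.05 without piscivore 2 (0.0528) or 3 (0.0547) of 2022 or piscivore 4 of 2023 (0.0502). Without planktivore 2, the difference of 2022 changed from -0.28 to -0.04. That library also had the highest share of ribosomal RNA counts, the part of which was not tested. Summed skeletal muscle markers were at 39.5 to 50.6 CPM in planktivores and 4.37 to 10.2 CPM in piscivores of 2022. Planktivore 2 (43.7 CPM) was not the highest in these. In 2023 planktivore 4 had 48.1 CPM, while planktivores 5 and 6 (8.20 and 5.51 CPM) lay within the piscivores (3.45 to 11.1 CPM). Planktivore 4 of 2023 was also the highest library in erythrocyte markers (591 CPM) and held 573 CPM of pituitary markers. Planktivore 2 of 2022 held 132 and 1.22 CPM of these. The part of these markers in the ddit3 values was not tested. Between years, all 3 piscivores of 2023 were below all 3 of 2022 for ddit3, a separation shared by 24.5% of the genes tested there, with a log2 difference of -0.42 (SE 0.16, edgeR, unadjusted p = 0.0266, adjusted p = 0.238). Without piscivore 1 of 2023 this was -0.29 (edgeR, unadjusted p = 0.107), and p was also above 0.05 without piscivore 1 of 2022 (0.0774) or piscivore 4 of 2023 (0.0514).

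The pseudokinase gene trib3, whose product restrains Atf4 and Chop in mammals, gave 2.62, 3.75 and 3.68 CPM in piscivores 1, 2 and 3 of 2022 and 2.78, 2.53 and 2.59 CPM in planktivores 2, 3 and 4. In 2023 it gave 2.62, 1.78 and 2.84 CPM in piscivores 1, 2 and 4 and 2.28, 2.15 and 1.75 CPM in planktivores 4, 5 and 6. The 2023 planktivores were all below the 2022 planktivores, and 27.6% of all genes tested there did not overlap in either direction, with a log2 difference of -0.35 (SE 0.22, edgeR, adjusted p = 0.423). With 28 to 99 counts, the counting error of a single value was 10.1 to 18.9%, and the 95% interval of the phenotype difference over both years ran from -0.06 to 0.65. The upper end of this interval is a 1.57-fold higher level in piscivores.

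The glutathione-degrading gene chac1 was at 268, 404 and 251 CPM in piscivores 1, 2 and 3 of 2022 and at 258, 253 and 281 CPM in planktivores 2, 3 and 4. In 2023 it was at 230.1, 253 and 217 CPM in piscivores 1, 2 and 4 and at 294, 243 and 247 CPM in planktivores 4, 5 and 6. In CPM the groups overlapped in both years. In TPM those of 2023 did not, with 296 to 304 TPM in piscivores and 333 to 342 TPM in planktivores. All piscivores of 2022 (317 to 482 TPM) were also above all piscivores of 2023 in TPM. For both cases, the share of all genes that lack overlap in TPM was not computed. Apart from piscivore 2 of 2022 the libraries lay between 217 and 294 CPM. The same library had the highest sum of oligodendrocyte markers (24155 CPM, against 7225 to 13605 CPM in the others). It also had the lowest sum of telencephalon markers (20.4 CPM, against 34.3 to 169 CPM). The part of these in the chac1 value was not tested. The phenotype difference of chac1 was 0.23 (SE 0.21) in 2022 and -0.14 (SE 0.13) in 2023, and the test of the change between years gave -0.39 with a 95% interval of -0.93 to 0.16 (edgeR, adjusted p = 0.832). Without piscivore 2 of 2022 the 2022 difference was -0.03 and the change between years -0.12.

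The leucine sensor gene sesn2, whose product holds back mTORC1 in mammals, was at 7.40, 8.23 and 9.09 CPM in piscivores and 7.67, 9.62 and 8.66 CPM in planktivores of 2022, in the order of their numbers. In 2023 it was at 9.23, 8.64 and 9.76 CPM in piscivores and 11.4, 7.89 and 10.6 CPM in planktivores. The groups overlapped in every comparison. The log2 difference between phenotypes over both years was -0.09 with a 95% interval of -0.33 to 0.15 (edgeR, adjusted p = 0.761).

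A separation without overlap in CPM was seen once more, for atf4a in 2022, where 13.7% of all genes tested did the same in either direction. Over the 7 genes and the 4 pairs of groups, 4 of 28 cases (14.3%) lacked overlap, once each for atf4a, asns, ddit3 and trib3, a share no higher than the background of most comparisons. In TPM the cases of atf4a and asns overlapped, while those of ddit3 and trib3 did not. Other cases lacked overlap in TPM alone: ddit3 and chac1 between phenotypes of 2023, ddit3 between years in planktivores and chac1 between years in piscivores. The share of all genes without overlap in TPM was not computed. In the test of the change of the phenotype difference between years, unadjusted p-values of the 7 genes lay between 0.146 and 0.873.

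How the genes varied together was described on log2 CPM less the mean of the year over the 12 libraries, which share scaling factors. Of 21 pairs, 14 had a positive r and the median r was 0.12. The strongest relation was the inverse one of asns and ddit3, both known targets of Atf4 (r = -0.83, permutation p = 0.00335, Spearman's rho = -0.76, permutation p = 0.0063, adjusted p over 21 pairs 0.0703). It was -0.78 within 2022 and -0.90 within 2023. Without the 2 libraries farthest from the median of asns, piscivore 2 and planktivore 2 of 2022, it was -0.85. Centred on each of the 4 groups, a choice made after the values were seen, r was -0.72 for this pair. Before centring, the library lowest in asns, planktivore 2 of 2022, was the highest in ddit3. Piscivore 1 of 2023, then the highest in asns, was the lowest in ddit3, and it was kept in the r of -0.85. Less the year mean, piscivore 2 of 2022 was the highest in asns. After adjustment over the 21 pairs no relation passed 0.05.

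**Figure D5:**
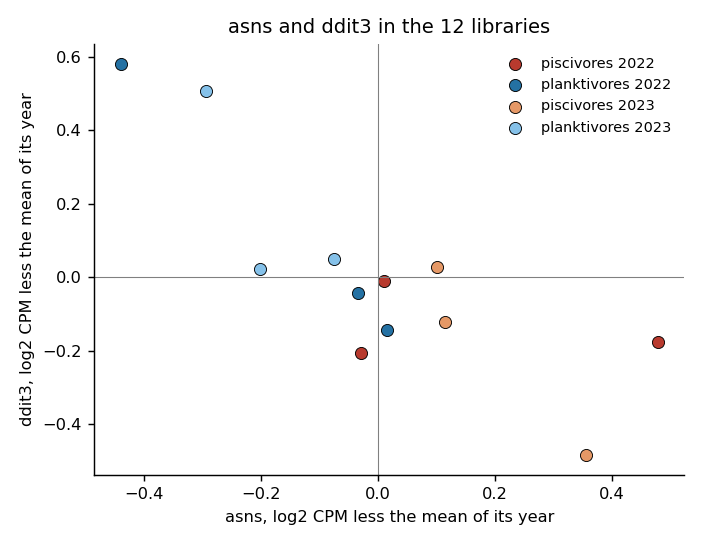
log2 CPM of asns (x axis) and ddit3 (y axis), each less the mean of its year, with 1 point per library coloured by phenotype and year. The points fall from upper left to lower right, with r = -0.83 over 12 libraries.

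The paralog atf4a went with trib3 (r = 0.74, permutation p = 0.0109, Spearman's rho = 0.64, permutation p = 0.0359, adjusted p 0.114) and, on this scale more loosely, with asns (r = 0.65, permutation p = 0.0340, Spearman's rho = 0.61, permutation p = 0.0489, adjusted p 0.238). On log2(TPM + 1) the order was reversed, with r of 0.76 for trib3 and 0.86 for asns. Apart from gene length, TPM and CPM differ in each library by a single factor that all genes share. For atf4a, planktivores 2 and 4 of 2022 had 227 and 230 CPM but 156 and 202 TPM. Such a factor enters every r in TPM, and its part in these values was not tested. The order of trib3 and asns was also reversed without centring on the year (0.32 and 0.69). Within years r was 0.91 in 2022 and 0.59 in 2023 for atf4a and trib3, and 0.77 and 0.51 for atf4a and asns. Centred on the groups, r was 0.60 for atf4a and trib3 and 0.33 for atf4a and asns. The relation of atf4a and asns fell to 0.43 without the 2 libraries farthest from the median of atf4a, so it rested in part on those, while that of atf4a and trib3 was 0.80 without them. The paralogs themselves gave r = -0.47 (permutation p = 0.148, Spearman's rho = -0.32, permutation p = 0.327, adjusted p 0.509, -0.61 without the 2 farthest libraries). This sign depended on the scale, since on log2(TPM + 1) it was 0.34, and centred on the groups r was -0.04. When the 19142 genes of at least 1 CPM were ordered by likeness to atf4b, atf4a took place 16421.

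The genes most like each member over the 12 libraries, by Pearson's r of year-centred log2 CPM, are given next, and of them slc7a5 alone is on the gene lists for the stress response that follow. For trib3 the nearest was slc7a5, the large neutral amino acid transporter and itself a known Atf4 target in mammals (r = 0.91), followed by serpinh2 and lats2, both at 0.90. For atf4a these were slc30a7 (0.93), LOC116065472 (0.92) and myb (0.90), and for atf4b ank1a (0.96), LOC116035975 (0.94) and runx1t1 (0.94). For asns they were tktb (0.94), the collagen gene col21a1 (0.94) and esyt1b (0.94), and for ddit3 zcchc9 (0.97), LOC116047222 (0.97) and prune2 (0.96). For chac1 they were mcmdc2 (0.97), rap1aa (0.94) and vkorc1l1 (0.94), and for sesn2 pla2g15 (0.85), LOC116039160 (0.84) and LOC118496214 (0.82). Such values are the top of 19142 genes over 12 libraries and are given as a description.

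The lists that follow were drawn up with earlier results of these data known. Their genes were measured in the same libraries, so shares set beside that of all genes are descriptions. Only genes whose symbol was in the count table were counted, so the lists are not whole families. Around the members, the kinases and initiation factors that act before Atf4 hardly differed between phenotypes over both years. Of 19 genes for eIF2 kinases and eIF2 handling, none was DT by edgeR and 1 had an unadjusted p below 0.05 (5.26% against 14.9% of all genes), and their median log2 difference was 0.00 against -0.01 for all genes. That gene was eif2ak4, which encodes the amino acid sensing kinase Gcn2, with -0.22 (SE 0.10, edgeR, adjusted p = 0.313) and group means of 16.8 and 19.6 CPM in piscivores and planktivores of 2022 and 14 and 16.2 CPM in 2023. The next by p was the haem-sensing kinase gene eif2ak1 with -0.29 (SE 0.14, adjusted p = 0.359). Between years none of the 19 was DT by edgeR. At an unadjusted p below 0.05, 6 were higher and 2 lower in 2023 in piscivores (42.1% against 17.3% of all genes). In planktivores 4 were higher and 2 lower (31.6% against 20.0%). With single libraries left out, 1 to 4 were higher in piscivores and 2 to 4 in planktivores.

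Among 16 bZIP partners and relatives of Atf4, none was DT between phenotypes by edgeR over both years and 2 had an unadjusted p below 0.05 (12.5% against 14.9% of all genes). These were batf at 1.73 (SE 0.42, adjusted p = 0.0857), a factor of immune cells, and nfe2l1b at 0.25 (SE 0.08, adjusted p = 0.172). Between years 3 of them were DT. The level of atf6b, an endoplasmic reticulum stress sensor, fell by 1.38 (log2) from 2022 to 2023 in piscivores (10.8 ± 0.0454 to 4.13 ± 0.866 CPM, SD, n = 3, edgeR, adjusted p = 0.0370). In planktivores cebpa fell by 1.96 (5.81 ± 0.633 to 1.48 ± 0.197 CPM, adjusted p = 0.0174) and cebpd by 1.55 (23.1 ± 3.06 to 7.86 ± 2.18 CPM, adjusted p = 0.0316), and the median of the 16 was -0.60 there (-0.38 with library totals in place of TMM factors, which moved the median of all genes from 0.00 to 0.21). The atf6b call was lost in 5 of 6 fits with a library left out and with library totals, and neither cebpa nor cebpd was called without planktivore 4 of 2022 or without planktivore 6 of 2023.

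Of 16 amino acid transporter genes, 7 were higher and 2 lower in piscivores at an unadjusted p below 0.05 over both years, or 56.3% against 14.9% of all genes tested, but none was DT by edgeR. Their median log2 difference was 0.27, and with single libraries left out 4 to 8 were higher, with the lowest count without planktivore 6 of 2023, and 2 lower. The lowest p-values were those of the cationic amino acid transporter genes slc7a2 (0.61, SE 0.16, adjusted p = 0.0964) and slc7a3a (0.50, SE 0.14, adjusted p = 0.108). In planktivores slc7a5 fell by 1.12 from 2022 to 2023 (9.31 ± 0.380 to 4.27 ± 0.723 CPM, SD, n = 3, edgeR, adjusted p = 0.0397), a call lost in 6 of 6 fits with a library left out and with library totals. Of 20 genes of serine, glycine, folate-linked carbon and proline synthesis, 4 were higher and 1 lower at an unadjusted p below 0.05 (25.0% against 14.9% of all genes), with a median of 0.12. First among them were gpt2l (0.33, SE 0.08, adjusted p = 0.0991), for an alanine transaminase, and mthfd2l (-0.42, SE 0.13, adjusted p = 0.152). Between years, the mitochondrial folate enzyme gene mthfd2 rose by 1.08 in planktivores (9.49 ± 0.757 to 20.1 ± 2.75 CPM, SD, n = 3, edgeR, adjusted p = 0.0312), a call lost in 5 of 6 fits with a library left out.

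Of 19 genes for cytosolic tRNA synthetases and their scaffold, which charge tRNAs with amino acids, 18 had a positive and 1 a negative difference over both years, with a median of 0.15. At an unadjusted p below 0.05 there were 4 (21.1% against 14.9% of all genes), all higher in piscivores, and none was DT by edgeR. With single libraries left out this count ran from 1 (without piscivore 1 of 2023) to 5, and 17 to 19 differences were positive. Lowest in p were lars1b for leucine (0.31, SE 0.09, adjusted p = 0.125) and iars1 for isoleucine (0.22, SE 0.09, adjusted p = 0.290). The direction of this list was that of asns.

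The list of endoplasmic reticulum stress arms beside Atf4 holds the sensors and regulators xbp1, ern1, atf6 and atf6b, chaperones and foldases, and genes that degrade misfolded proteins. Of 26 genes, 13 were higher and none lower in piscivores at an unadjusted p below 0.05 over both years, or 50.0% against 14.9% of all genes, with a median of 0.21, though none was DT by edgeR. With single libraries left out, 12 to 15 were higher at that p. Summed meningeal markers were also higher in piscivores (260 to 417 against 108 to 202 CPM in 2022, 245 to 713 against 103 to 206 CPM in 2023), as were microglial markers in 2023 (1562 to 2037 against 698 to 1440 CPM), while these overlapped in 2022 (1505 to 2320 against 1110 to 1655 CPM). Their part in the lean of this list was not tested. The secreted factor gene manf was 0.50 higher (SE 0.10, adjusted p = 0.0529), with 29.6 ± 3.86 against 20.3 ± 2.47 CPM in 2022 and 33.2 ± 5.46 against 24.3 ± 1.85 CPM in 2023 (SD, n = 3). The chaperone gene hspa5 (BiP) was 0.55 higher (SE 0.12, adjusted p = 0.0579), with 165 ± 5.27 against 100.3 ± 19.9 CPM in 2022 and 138 ± 15.0 against 105 ± 12.9 CPM in 2023. The difference of the member ddit3 over both years was negative (-0.34, edgeR, adjusted p = 0.279), and its relation to this list was not tested.

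Another 28 genes were listed as outputs of the integrated stress response. The list also holds parts of amino acid sensing for mTORC1, which are not such outputs: depdc5, nprl2, nprl3, castor1 and castor2. None of the 28 was DT by edgeR, and their median was 0.03. At an unadjusted p below 0.05, 5 were higher and 6 lower (39.3% against 14.9% of all genes). These counts were 2 and 3 without planktivore 2 of 2022. The lowest p-values were those of depdc5, a part of the complex that curbs mTORC1 when amino acids are scarce (-0.42, SE 0.09, adjusted p = 0.0569), and of the growth factor gene vegfaa (-0.45, SE 0.14, adjusted p = 0.154). Immediate early genes respond within minutes to neural activity and handling. Of 24 symbols listed, 16 were in the table. The gene junba, which the study gives under a LOC number, was not among these. Among the 16, 5 were lower and none higher in piscivores at an unadjusted p below 0.05 (31.3% against 14.9% of all genes). The gene ier2a was DT over both years, where it was at -1.44 (SE 0.29, edgeR, adjusted p = 0.0457), with 5.22 ± 1.68 CPM in piscivores against 15.5 ± 3.90 CPM in planktivores of 2022 and 3.23 ± 0.444 against 7.99 ± 5.47 CPM in 2023. No gene of this list was called in 10 of 12 fits with a library left out, nor with library totals. The lowest p after ier2a was that of dusp1 (-1.40, SE 0.29, adjusted p = 0.0540). Over both years DESeq2 called 1 gene among the bZIP partners, 2 among the immediate early genes and 0 in each of the other lists. The direction of the immediate early genes was that of ddit3, and their part in the ddit3 difference was not tested.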

How the data were processed

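RNA from 12 whole brains was extracted with RNA Blue, enriched for poly(A) and sequenced by a company. Per the study's methods the authors trimmed reads, mapped them with STAR (version 2.5.2 in the submitters' processing notes) to the pikeperch genome and counted unique reads in exons. The deposited values were counts per gene and TPM, and the TPM equalled counts per exon length scaled to a fixed total (largest difference 0). Lines naming no gene (24, with 0.589 to 3.18% of counts) were left out. Gene names came from the files, and 31453 IDs matched the RefSeq gene table of the same assembly. No sequence was used here, and promoter motifs were not analysed here.

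Counts were tested with the quasi-likelihood test of edgeR 4.0.16 (R 4.3.3, filterByExpr, TMM, robust) with Benjamini-Hochberg adjustment over all genes tested. Phenotypes were compared within years, years within phenotypes, and phenotypes over all 12 libraries with year as a term, then by interaction. CPM used a prior count of 2 on the log2 scale. The ratio of paralogs used exact permutation tests, and correlations 100000 permutations within years. Counting error was the Poisson error of a count and covers counting only. Scripts were tested on simulated data. Alternatives were DESeq2 1.42.0, other size factors, other filters, a joint fit, omission of ribosomal RNA genes, a replicate block and leaving out each library. Named were every member, from each list every DT gene and otherwise the 2 of lowest p over both years, and the 3 genes most like each member. The members and lists were chosen with earlier results of these data known.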

Additional observations from a re-analysis of the deposited data

How the results depend on the processing

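No member was DT, or at an adjusted p below 0.05, in any of 98 fits by edgeR or DESeq2, 48 of them with a library left out. The largest fold change of a member in any fit was 0.62 (log2). Of 308 fold changes under other settings, 3 changed sign: atf4b between years in piscivores (0.17) and chac1 between years in planktivores (0.19) with library totals in place of TMM factors, and sesn2 between phenotypes of 2022 with a replicate block (0.013). Library totals moved the median of all genes from 0.01 to 0.20 between years in piscivores and from 0.00 to 0.21 in planktivores, so both year differences were below that median. Of 336 values with a library left out, 25 changed sign. Their ranges were, between phenotypes, -0.026 to 0.34 (chac1, 2022), -0.091 to 0.091 (chac1, both years), -0.15 to 0.034 (sesn2, 2022) and -0.23 to 0.012 (sesn2, 2023). Between years they were -0.010 to 0.080 (atf4a) and -0.084 to 0.026 (atf4b) in piscivores, and -0.11 to 0.039 (chac1) in planktivores. For the change of the phenotype difference between years they were -0.14 to 0.012 (atf4a), -0.022 to 0.28 (asns), -0.33 to 0.081 (ddit3), -0.25 to 0.059 (trib3) and -0.20 to 0.078 (sesn2). The log2 ratio of atf4a to atf4b between phenotypes over both years stayed between 0.23 and 0.32 with exact p between 0.005 and 0.02, while between years it ran from -0.034 to 0.13 in piscivores and from -0.0070 to 0.12 in planktivores.

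On log2(TPM + 1), correlations that changed sign were atf4a and atf4b (0.34), atf4b and asns (0.28), atf4b and trib3 (0.049), asns and sesn2 (0.30), ddit3 and chac1 (-0.21) and ddit3 and sesn2 (-0.079). Without centring on the year they were asns and trib3 (-0.053), asns and sesn2 (0.22), ddit3 and trib3 (0.12), ddit3 and sesn2 (-0.22), trib3 and sesn2 (-0.27) and chac1 and sesn2 (-0.16), and atf4a and trib3 weakened to 0.32. Centred on the groups they were atf4a and ddit3 (0.049), atf4b and asns (0.19), asns and sesn2 (0.20) and ddit3 and sesn2 (-0.11). The part of the factor between TPM and CPM, which all genes of a library share, was not tested, nor was any other cause.

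Counts of DT genes moved by over 1.5 times. DESeq2 gave 410, 149, 392, 618, 220 and 92 where edgeR gave 36 (phenotypes 2023), 11 (phenotypes 2022), 73 (years in piscivores), 207 (years in planktivores), 65 (phenotypes over both years) and 3 (interaction). Without the low-count filter there were 60, 43 and 125 in the first 3, with at least 10 counts everywhere 24 between years in piscivores, and with adjusted p alone 154 for phenotypes over both years. A joint fit gave 5 for phenotypes 2023 and 419 for years in planktivores. Library totals gave 11 for phenotypes 2023 and changed the split of higher and lower genes from 27 and 9 to 5 and 6, for years in piscivores from 42 and 31 to 75 and 22, and for years in planktivores from 43 and 164 to 176 and 114. With a library left out the counts, which set the background shares, ran from 1 (without piscivore 1 or planktivore 6 of 2023) to 16 (phenotypes 2023), 0 to 2 (phenotypes 2022), 22 (without piscivore 2 of 2023) to 77 (years in piscivores), 12 (without planktivore 6 of 2023) to 148 (years in planktivores), 1 (without piscivore 3 or planktivore 2 of 2022, or piscivore 1 or planktivore 5 of 2023) to 113 (phenotypes over both years) and 0 to 8 (interaction). The label numbers did not pair the fish (correlations of deviations -0.05 and 0.02 between phenotypes of 2022, -0.05 and 0.14 between years in piscivores). With these numbers as a replicate block 18 genes were DT for phenotypes 2022, 1 for years in piscivores, and 0 over both years and for the interaction. Groups sharing fewer than 2 numbers allowed no block. Depth limits trib3 most, at 28 to 99 counts per library.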
